A study of Flaveria robusta and Flaveria ramosissima and Flaveria trinervia with 18 samples.

Results

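The species difference under high light was examined between leaves of *Flaveria ramosissima*, a C3–C4 intermediate, and leaves of the C3 species *Flaveria robusta*. The comparison covered the rows of the deposited expression table that averaged at least 1 TPM (a transcript abundance that takes account of transcript length and is expressed relative to the whole library) in each species. These shared rows numbered 11798 of 30040, with 6340 among gene numbers up to 19000 and 5458 above. Newly expanded mature leaves of both species had been kept at 1400 µmol photons m−2 s−1 (3 libraries each). The same 2 species at the control light of 500 (3 libraries each) gave the spread between replicates and a second comparison, and the C4 species *F. trinervia* is used only for its levels. Each kind of photosynthesis was represented by a single species, so a species difference cannot be told apart from a difference between photosynthetic types. The labels give no length of exposure, and their growth text gives a chamber light below both levels. They also do not say whether the replicates were separate plants, so the p-values reflect only the variation among these libraries, which may be technical.

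In a C3 leaf, Rubisco fixes CO2 directly and part of the fixed carbon is lost again through photorespiration. In C3–C4 intermediates of *Flaveria*, glycine from photorespiration is largely broken down in the bundle sheath, where the released CO2 can be fixed again. C4 species instead pump CO2 into the bundle sheath through phospho*enol*pyruvate carboxylase and a cycle of C4 acids. The genus holds species at each of these stages and is used to follow the order in which expression changed. The deposited table identifies its rows by gene number alone and pairs none with a gene name, so that C4 cycle, photorespiratory or light-harvesting genes could not be picked out. The rows are therefore described by number range, abundance and size of difference. Printed by number are 2 rows that were higher, 2 that were lower and 3 that were called in a test of light dependence.

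The 2 ranges of gene numbers differed in which species reached 1 TPM. Up to 19000, 15100 numbers were listed, and 42.0% of them were shared rows, while 950 rows reached 1 TPM in *F. ramosissima* only and 2199 in *F. robusta* only. Above 19000, 14940 numbers were listed, and 36.5% were shared rows, while 4567 rows reached 1 TPM in *F. ramosissima* only and 1004 in *F. robusta* only. At the resolution of bins of 1000 numbers, the step lay at the boundary. The boundary was set with earlier results of these data known, so the place of the step is no independent observation. Bins of 1000 numbers held 35 to 65 rows found only in *F. ramosissima* up to 19000 and 194 to 452 above it. The sources used here do not state how rows were matched between species, so the different make-up of the ranges cannot be told apart from a difference in expression. The shared rows were also unequal in the C4 species: a mean of 1 TPM in high-light *F. trinervia* was reached by 5834 shared rows up to 19000 (92.0%) and by 4393 above (80.5%).

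**Figure D1:**
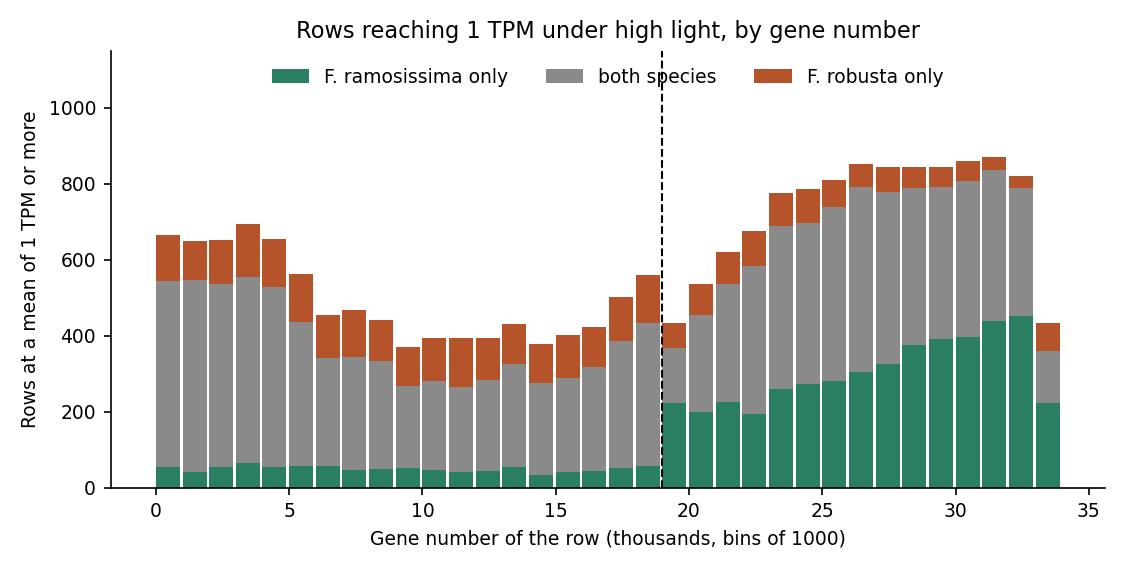
Rows with a mean of at least 1 TPM under high light (y axis, number of rows) by gene number (x axis, bins of 1000), stacked by whether they reached it in F. ramosissima only, in both species or in F. robusta only. Rows found only in F. ramosissima number at most 65 per bin left of the dashed line at 19000 and at least 194 right of it; a last bin of 39 rows is not drawn.

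The shared rows held a smaller part of the *F. ramosissima* libraries than of the *F. robusta* libraries. Those numbered up to 19000 took 50.3%, 50.9% and 51.2% of listed TPM in *F. ramosissima* replicates 1, 2 and 3, against 55.2%, 58.5% and 56.9% in *F. robusta*. Those above 19000 took 34.2%, 34.0% and 33.3% in *F. ramosissima*, against 38.9%, 38.0% and 37.8% in *F. robusta*. In both ranges every *F. ramosissima* library lay below every *F. robusta* library. Together the shared rows took 84.6% ± 0.236 in *F. ramosissima* and 95.1% ± 1.23 in *F. robusta* (SD, n = 3), a difference of −10.5 percentage points (exact permutation p = 0.1, two-sided, the smallest that 3 against 3 libraries can give, adjusted p = 0.114 over 8 shares). Most of the remainder in *F. ramosissima* lay in rows that only this species reached, which took 4.34% ± 0.169 up to 19000 and 10.7% ± 0.363 above. These rows were chosen by the same levels and carry no test. The shared rows were chosen by the same high-light means and their share is nearly the complement, so its p-value is no independent support. The p-values of shares and library medians given below have the same limit. In the control-light libraries, which did not choose the rows, the shared rows took 84.5% ± 0.312 in *F. ramosissima* and 95.7% ± 0.820 in *F. robusta* (SD, n = 3). In such whole-leaf RNA, fewer cells of a type and less RNA per cell cannot be told apart.

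The typical shared row was also lower in *F. ramosissima* as deposited. Its median abundance was 7.65, 6.19 and 7.36 TPM in the 3 *F. ramosissima* libraries, against 15.3, 9.12 and 13.2 TPM in the 3 *F. robusta* libraries. The groups did not overlap, and *F. robusta* replicate 2 lay closest to *F. ramosissima*. On the scale of log2(TPM + 1), on which all differences below are given and which understates differences of low rows, library medians differed by −0.72 (*F. ramosissima* minus *F. robusta*, exact permutation p = 0.1, adjusted p = 0.1 over 3 medians). The difference was −0.65 up to 19000 and −0.80 above 19000. Without *F. robusta* replicate 2 it was −0.92 over both ranges.

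**Figure D2:**
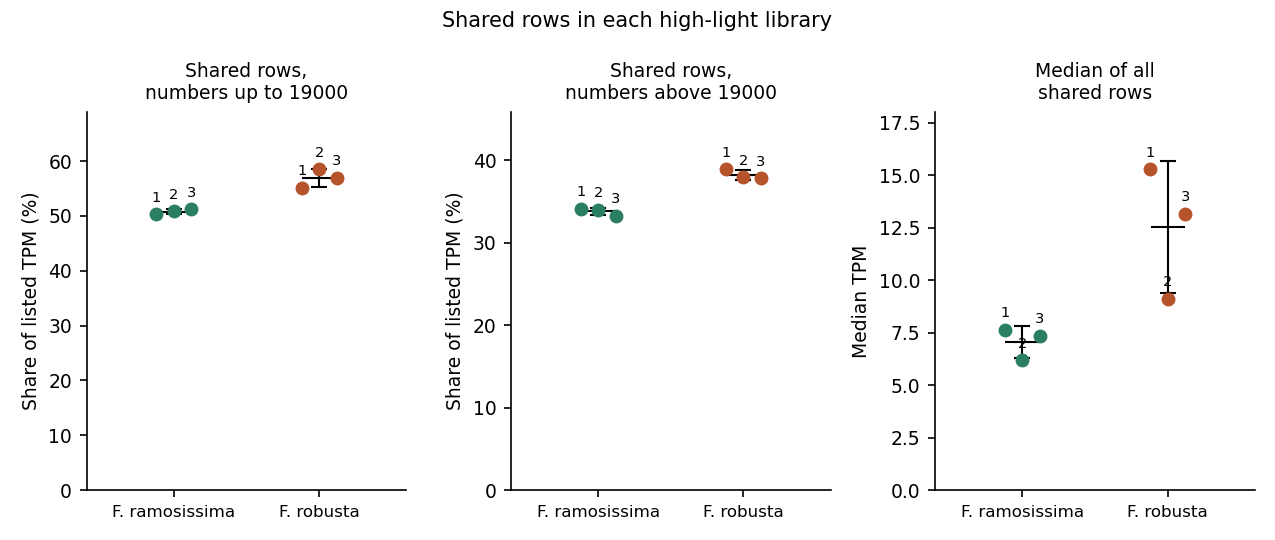
Share of listed TPM taken by shared rows of the 2 number ranges (left and middle, %) and median TPM of all shared rows (right) in each high-light library, with F. ramosissima left of F. robusta; points are libraries with their replicate number, bars are mean ± SD (n = 3). No F. ramosissima library reaches the lowest F. robusta library in any panel, and F. robusta replicate 2 has a median of 9.12 TPM.

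Libraries of one species were far closer to each other than to those of the other species. Across the 11798 shared rows, Pearson's r of log2 values was 0.931 to 0.951 between *F. ramosissima* libraries and 0.905 to 0.975 between *F. robusta* libraries, against 0.661 to 0.724 between species. Rows are not independent replicates, and these values carry no test. *F. robusta* replicate 2 stood apart from its group: its shared rows above 1000 TPM took 57.8% of listed TPM, against 41.1% and 44.3% in replicates 1 and 3. Replicate 2 also had the largest such share in *F. ramosissima*, at 45.7% under high light and 45.3% under control light. In control-light *F. robusta* it did not, at 50.2% against 51.2% in replicate 3. The median TPM of shared rows was lowest in replicate 2 in both species at both light levels. The median SD of a shared row within a group was 0.303 in *F. ramosissima* and 0.426 in *F. robusta*, and 0.188 over *F. robusta* replicates 1 and 3 alone. Listed TPM summed to between 903641 and 929124 in the 6 libraries, and read depth is unknown, because TPM keeps no depth.

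A large part of the shared rows differed between the species beyond the spread of replicates. In the limma model of the 12 libraries of both species, 6495 of the 11798 shared rows (55.1%) were called at an adjusted p threshold of 0.05. Of these, 1454 were higher and 5041 lower in *F. ramosissima*. Over all 20518 rows tested, which include rows reaching 1 TPM in 1 species only and therefore bound to differ, 67.5% were called, 30.5% higher and 36.9% lower. Up to 19000, 861 shared rows were higher and 2520 lower (13.6% and 39.8% of the range). Above 19000, 593 were higher and 2521 lower (10.9% and 46.2%). All 3 *F. ramosissima* libraries lay above all 3 *F. robusta* libraries for 1610 shared rows (13.65%) and below them for 5117 (43.37%). Over all rows tested these shares were 31.6% and 37.9%. The 6 high-light libraries fitted alone gave 5838 calls (49.5%). Leaving out 1 library at a time gave 5306 calls (without high-light *F. robusta* replicate 3) to 7188 (without replicate 2, with 1270 higher and 5918 lower).

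The balance between higher and lower rows turned under 1 of the scalings tried. Over the shared rows the median log2 difference was −0.62, with quartiles at −1.30 and 0.13. After median-ratio scaling (division of each library by its median ratio to the geometric mean of the libraries, over 15004 rows above 0 in all 12 libraries), the median was 0.071, a shift of 0.69. This scaling centres the libraries on each other over those 15004 rows. A median near 0 and a nearly even balance are therefore partly built in and are no separate support. Of 6044 calls after scaling, 3393 were higher and 2651 lower in *F. ramosissima* (56.1% higher, against 22.4% as deposited). Over all 20518 rows tested, 63.5% were called after scaling, 40.6% higher and 22.9% lower. The balance turned up to 19000, to 2051 higher and 1324 lower, and was nearly even above 19000, with 1342 and 1327. After scaling, all 3 *F. ramosissima* libraries lay above all 3 *F. robusta* libraries for 3686 shared rows and below them for 3012, against 42.2% and 25.6% of all rows tested. Setting each library relative to the total of its shared rows alone, which removes the unequal shares given above, left the difference of library medians at −0.59 and 1643 rows higher against 4300 lower. Quantile normalization gave all libraries the same distribution of values over the 20518 rows tested. It left 1721 shared rows higher and 5459 lower and a difference of library medians of −0.49. The rows tested include 5517 that reached 1 TPM in *F. ramosissima* only and 3203 in *F. robusta* only. Equal distributions over this unequal set tend to place the shared rows at lower ranks in *F. ramosissima*. This balance is thus partly built in and is no separate support, though how far was not tested. Against the values as deposited, the difference of library medians moved upward, from −0.72. Which scaling fits these species was not tested.

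**Figure D3:**
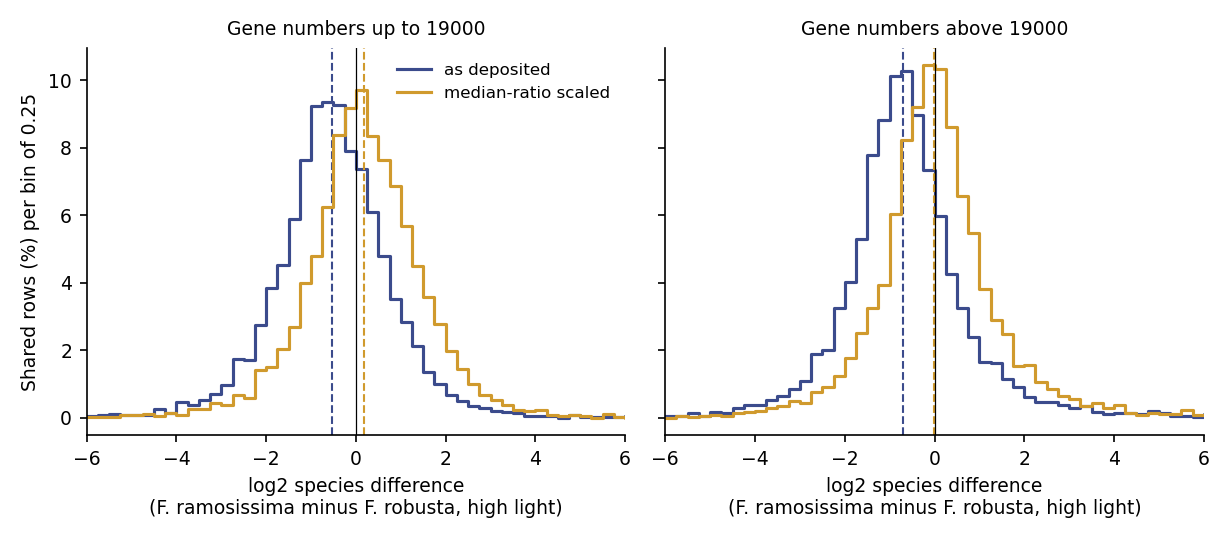
Distribution of the log2 species difference under high light (x axis, F. ramosissima minus F. robusta) over shared rows (y axis, % of rows per bin of 0.25) for gene numbers up to 19000 (left) and above (right), as deposited and after median-ratio scaling; dashed lines are medians. The medians lie at −0.53 and −0.71 as deposited and at 0.17 and −0.014 after scaling; rows beyond 6 on either side are not drawn.

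Median-ratio scaling moved the differences of nearly all shared rows upward alike, so rows called higher could hardly lose their call and an opposite call could hardly arise. The informative count is therefore that of lower rows. Of the 5041 called lower as deposited, 2651 were also called lower after scaling (1324 up to 19000 and 1327 above) and 2390 were not. The 1454 higher rows were called higher under both, and a further 1939 rows were called higher only after scaling.

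Differences were often large. Among called shared rows the median was 1.40 for higher rows and −1.41 for lower rows. More than 4-fold differences were called for 401 higher and 1285 lower rows (3.40% and 10.9% of shared rows), and for 864 higher and 574 lower rows after scaling. More than 16-fold differences were called for 100 higher rows (0.848% of shared rows). Of these, 31 lay up to 19000 and 69 above (0.489% and 1.26% of the shared rows of each range). Among the 152 rows that were more than 16-fold lower (1.29%), 73 lay up to 19000 and 79 above (1.15% and 1.45%). The 100 rows had a median abundance of 219 TPM in *F. ramosissima* and 2.50 TPM in *F. robusta*. They took 6.31% ± 0.211 of listed TPM in *F. ramosissima* and 0.0972% ± 0.0262 in *F. robusta* (SD, n = 3). Of these rows, 49 reached 1 TPM in high-light *F. trinervia*, against 86.7% of all shared rows. In all its 3 high-light libraries 39 were listed at 0, against 165 of the 1454 rows called higher. The 152 rows had a median of 2.80 TPM in *F. ramosissima* and 120 TPM in *F. robusta*, and 105 of them reached 1 TPM in high-light *F. trinervia*. In all 3 high-light *F. trinervia* libraries 22 of the 152 were listed at 0, against 359 of the 5041 rows called lower.

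The direction of the difference varied with abundance. Classes were set by the mean of the 2 high-light group means. Among 5465 shared rows of 1 to 10 TPM, 401 were higher and 2153 lower in *F. ramosissima* (7.34% and 39.4%, median −0.57). Among 5355 rows of 10 to 100 TPM, 739 were higher and 2563 lower (13.8% and 47.9%, median −0.76). Among 878 rows of 100 to 1000 TPM, 273 were higher and 297 lower (31.1% and 33.8%, median −0.10). Among 100 rows over 1000 TPM, 41 were higher and 28 lower (median 0.32). Lower rows thus outnumbered higher rows by the most below 100 TPM. After median-ratio scaling higher rows outnumbered lower rows in all 4 classes, from 1287 against 990 in the lowest to 54 against 9 in the highest. Classes set by the means of the 6 control-light libraries, which enter the model's spread but not the high-light difference, gave the same order, with 390 higher and 2149 lower rows under 10 TPM and 37 higher and 27 lower rows over 1000 TPM. This alternative was chosen after seeing the data.

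**Figure D4:**
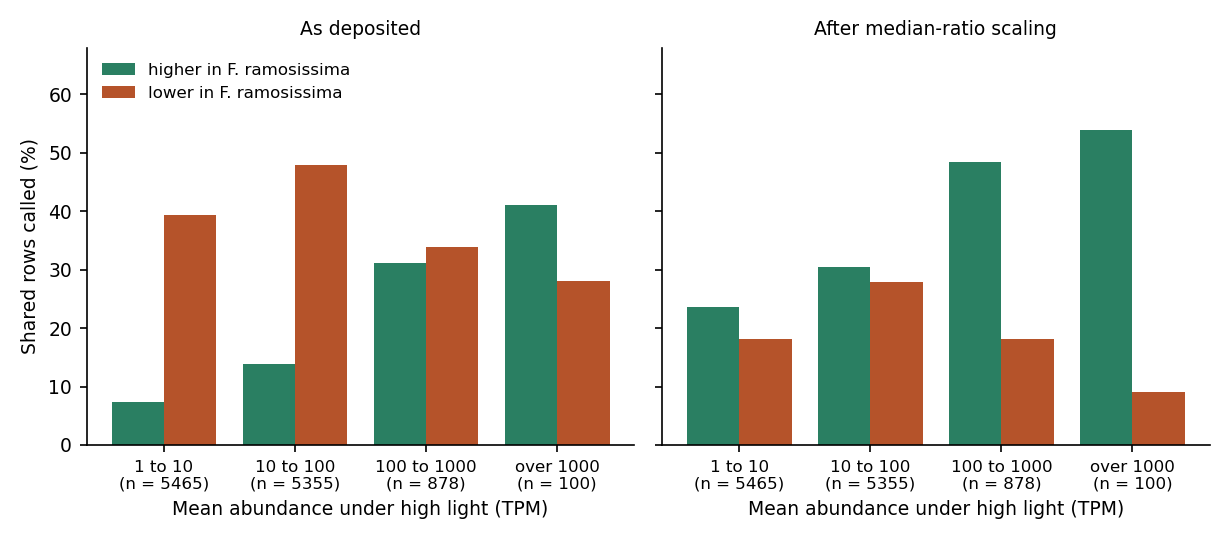
Percentage of shared rows called higher and lower in F. ramosissima under high light (y axis, limma adjusted p of 0.05) in 4 classes of mean abundance (x axis, TPM, with the number of rows), as deposited (left) and after median-ratio scaling (right). Higher rows make up 7.34% of the lowest class and 41% of the highest as deposited, and 23.6% and 54% after scaling.

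The median difference was lower above 19000 for rows of up to 1000 TPM and higher for rows over 1000 TPM. At 10 to 100 TPM the median difference was −0.61 over 2874 rows up to 19000 and −0.91 over 2481 rows above, or 0.16 and −0.14 after median-ratio scaling. At 1 to 10 TPM it was −0.53 and −0.61. Over 1000 TPM it was 0.20 over 57 rows up to 19000 and 0.46 over 43 rows above. The ranges were compared as descriptions and this difference carries no test.

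The abundance classes took unequal shares of the libraries. Shared rows of 10 to 100 TPM took 14.8%, 12.6% and 14.0% of listed TPM in *F. ramosissima*, against 24.2%, 15.4% and 22.2% in *F. robusta*, without overlap. Those of 1 to 10 TPM took 2.29% ± 0.228 in *F. ramosissima* and 3.70% ± 0.957 in *F. robusta*. Those of 100 to 1000 TPM were the only class with a larger share in every *F. ramosissima* library, at 25.4% ± 0.80 in *F. ramosissima* and 23.0% ± 2.19 in *F. robusta* (SD, n = 3; exact permutation p = 0.1 and adjusted p = 0.114 for each of these 3 classes). The difference in this last class was 2.33 percentage points and 1.07 without *F. robusta* replicate 2. The 100 rows over 1000 TPM took 43.2% ± 2.33 in *F. ramosissima* and 47.7% ± 8.89 in *F. robusta*, groups that overlapped (exact permutation p = 0.6). Their difference, −4.54 percentage points, was 0.511 without *F. robusta* replicate 2. The 10 most abundant shared rows took 13.7%, 15.4% and 16.2% in *F. ramosissima*, against 20.1%, 29.8% and 22.3% in *F. robusta*.

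Single rows at the top of the range did not all follow the class. The most abundant shared row had 30073, 33304 and 34182 TPM in *F. ramosissima*, against 33151, 34358 and 35724 TPM in *F. robusta*. Its groups overlapped, with a log2 difference of −0.083 (SE 0.14, limma adjusted p = 0.598; 0.73 and 0.0503 after median-ratio scaling). The fourth most abundant had 7741, 7519 and 11561 TPM in *F. ramosissima*, against 27214, 35055 and 31647 TPM in *F. robusta*, a log2 difference of −1.83 (limma adjusted p = 8.99e-06; −1.01 and 0.0207 after median-ratio scaling). The eighth had 15065, 13182 and 22492 TPM in *F. ramosissima*, against 7228, 8715 and 9454 TPM in *F. robusta*. Its log2 difference was 0.97 (limma adjusted p = 0.00348), and 1.78 after median-ratio scaling (limma adjusted p = 0.000914). These rows were picked with their values in view, and what they encode is unknown here.

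The 4 printed rows had the largest rise and the largest fall in each number range among called, non-overlapping rows with at least 5 TPM in the lower group. Gene16504 had 9598, 10149 and 10338 TPM in the high-light *F. ramosissima* libraries, against 24.3, 18.8 and 12.8 TPM in *F. robusta*. It had the largest such rise up to 19000, at a log2 difference of 9.04 (SE 0.33, limma adjusted p = 1.74e-09), or 537-fold by the ratio of means. Under control light it had 10492, 13803 and 10975 TPM in *F. ramosissima*, against 21.0, 16.0 and 43.9 TPM in *F. robusta*, and it was listed at 0 in all 6 *F. trinervia* libraries. The groups were thus widely separated at both light levels (log2 difference 8.83 under control light).

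Gene22336, with the largest such rise above 19000, had 1215, 1399 and 1374 TPM in *F. ramosissima*, against 7.55, 2.58 and 6.86 TPM in *F. robusta*. The log2 difference was 7.74 (SE 0.34, limma adjusted p = 6.18e-09). In high-light *F. trinervia* it had 113, 133 and 104 TPM, between the other 2 species. Its control-light values were also separated, at 939 ± 87.2 TPM in *F. ramosissima* and 3.08 ± 1.44 TPM in *F. robusta* (SD, n = 3).

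Gene13900, with the largest such fall up to 19000, had 28.1, 10.4 and 5.53 TPM in *F. ramosissima*, against 2080, 3462 and 1719 TPM in *F. robusta*. The log2 difference was −7.48 (SE 1.12, limma adjusted p = 0.000148). Under control light it was spread widely in *F. ramosissima*, at 0.11, 34.8 and 0 TPM, against 3605, 3881 and 2988 TPM in *F. robusta*. In high-light *F. trinervia* it had 0, 0.98 and 0.33 TPM.

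Gene28355, with the largest such fall above 19000, had 10.8, 2.37 and 10.6 TPM in *F. ramosissima*, against 2290, 427 and 1159 TPM in *F. robusta*. The log2 difference was −7.08 (SE 1.20, limma adjusted p = 0.000371). Under control light the groups overlapped, with 4.36, 48.5 and 106 TPM in *F. ramosissima*, against 457, 31.6 and 55.4 TPM in *F. robusta* (log2 difference −1.63, limma adjusted p = 0.256). The test of the change between light levels gave −5.45 (SE 1.70, limma adjusted p = 0.278), so that a dependence on light was not shown. In high-light *F. trinervia* the row had 9.96, 47.9 and 29.7 TPM.

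**Figure D5:**
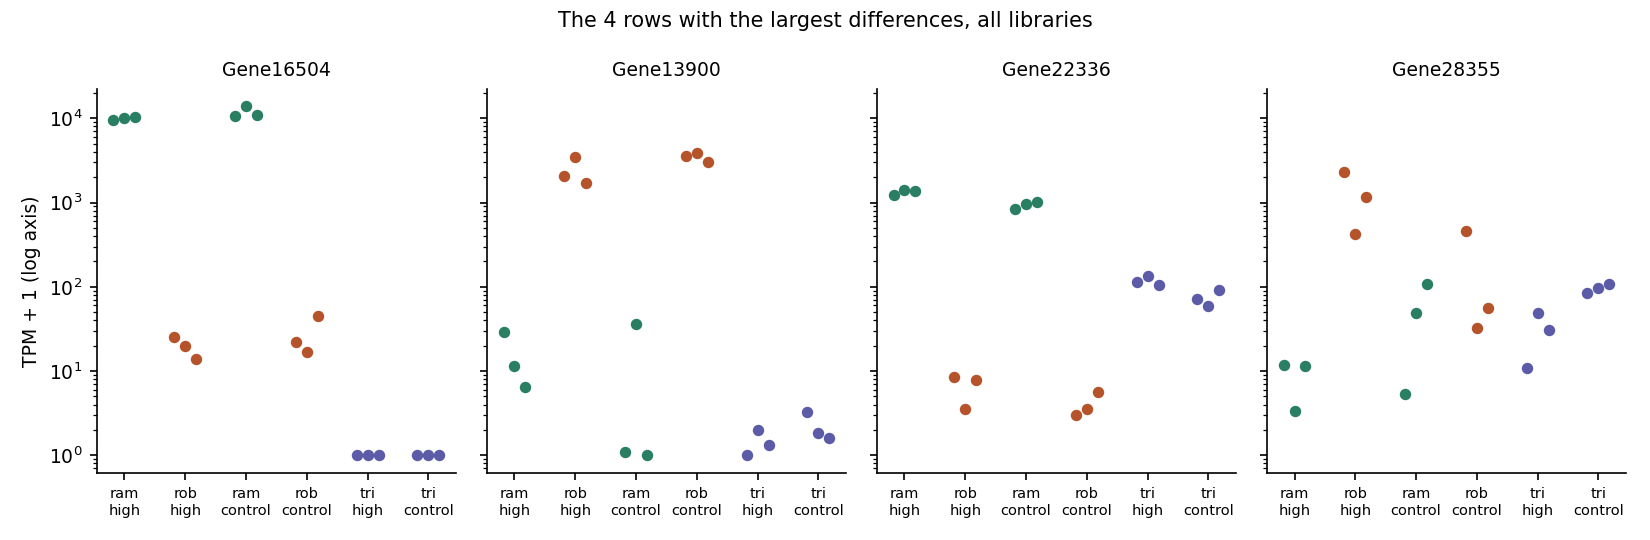
Abundance of the 4 printed rows (y axis, TPM + 1 on a log axis; a value of 1 is a row listed at 0) in every library of F. ramosissima (ram), F. robusta (rob) and F. trinervia (tri) at high and control light; points are single libraries. Gene16504 and Gene22336 lie higher in F. ramosissima at both light levels, Gene13900 lies lower, and the control-light groups of Gene28355 overlap.

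The same shared rows were compared in the control-light libraries, which neither chose the rows nor enter the high-light means. There, 5860 shared rows were called, or 49.7% of them, with 1386 higher and 4474 lower in *F. ramosissima* (11.7% and 37.9%) and a median difference of −0.52. Over all 20518 rows tested, 61.5% were called under control light, 29.5% higher and 32% lower. Of the rows called higher under high light, 1032 of 1454 (71.0%) were also called higher under control light. Of those called lower, 3651 of 5041 (72.4%) were also called lower. Opposite calls were made for 29 rows. Both light levels share 1 spread per row in this model. With each light level fitted alone, 5838 and 5898 shared rows were called under high and control light, of which 4180 were called in the same direction and 21 in opposite directions. Over all rows tested, such fits called 62.7% under high light and 60.9% under control light.

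Most of the larger differences were also found without overlap under control light. Among the 100 rows more than 16-fold higher under high light, all 3 control-light *F. ramosissima* libraries lay above all 3 *F. robusta* libraries for 95, and the median control-light difference was 5.10. Among the 152 rows more than 16-fold lower, all 3 lay below for 110 (72.4%), with a median control-light difference of −3.43. Over all rows tested these shares were 31.7% above and 36.8% below. Across the 11798 shared rows, differences under high and control light had a Pearson's r of 0.817 and a Spearman's rho of 0.775, as a description over rows that share species and normalization.

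Few single rows passed the test of whether the species difference depended on light. The interaction test of the limma model called 4 shared rows, 1 with a more positive and 3 with a more negative difference under high light, while 1245 had an unadjusted p under 0.05. Over all 20518 rows tested, 12 were called (0.0585%), 4 of them more positive (0.0195%) and 8 more negative (0.039%). Gene22838 had 6.10, 5.06 and 6.38 TPM in *F. ramosissima*, against 6.94, 5.16 and 4.72 TPM in *F. robusta* under high light. Under control light it had 1.24, 2.32 and 2.58 TPM in *F. ramosissima*, against 13.8, 20.8 and 14.3 TPM in *F. robusta*, and the difference changed by 2.57 (SE 0.35, limma adjusted p = 0.0384). As deposited, the species were separated under control light and overlapped under high light, where they did not overlap after median-ratio scaling (log2 difference 0.76, limma adjusted p = 0.0359).

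In the other direction, Gene32993 had 7.41, 3.41 and 2.53 TPM in *F. ramosissima*, against 31.3, 29.7 and 40.2 TPM in *F. robusta* under high light. Under control light it had 51.6, 23.3 and 32.2 TPM in *F. ramosissima*, against 17.7, 8.61 and 15.0 TPM in *F. robusta*. As deposited, the order of the species was reversed between light levels without overlap at either, a change of −4.06 (SE 0.55, limma adjusted p = 0.0384). Gene03124 had 23.0, 11.7 and 45.2 TPM in *F. ramosissima*, against 87.3, 70.1 and 134 TPM in *F. robusta* under high light, and 168, 59.4 and 87.7 TPM in *F. ramosissima*, against 16.5, 11.2 and 15.0 TPM in *F. robusta* under control light, a change of −4.65 (SE 0.68, limma adjusted p = 0.04998). The remaining row had 1.89, 0.67 and 2.75 TPM in *F. ramosissima*, against 25.3, 38.7 and 39.8 TPM in *F. robusta* under high light, and overlapping groups under control light (a change of −3.78, limma adjusted p = 0.0384). These rows were chosen after their values were seen. Over the 12 fits that left out 1 library, they were called in 2 to 5 fits each, and the count of 4 was 0 in 5 of these fits, in which 913 to 1276 rows had an unadjusted p under 0.05. It was 33 without high-light *F. robusta* replicate 2, 59 without control-light *F. ramosissima* replicate 2 and 1 without high-light *F. ramosissima* replicate 2. Under other settings it ran from 0 at a pseudocount of 0.1 (1233 at an unadjusted p under 0.05) to 196 with the *F. trinervia* libraries in the model. With a replicate block it was 70, with 3 more positive and 67 more negative.

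Rows near the limit of 1 TPM are given for both sides of it. With the lower group mean between 1 and 1.1 TPM, 165 of 259 rows were called and the median absolute log2 difference was 1.04. Just outside, between 0.9 and 1 TPM, 150 of 252 rows were called and the median was 0.99. A value of 0 in at least 1 of the 6 high-light libraries was listed for 105 shared rows, 34 up to 19000 and 71 above.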

How the data were processed

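RNA from 18 leaf libraries had been sequenced, of which the 12 of *F. ramosissima* and *F. robusta* entered the tests. The authors deposited 1 table of TPM values, made with RSEM per the labels, whose processing notes also name edgeR without a version; the sources used here state neither the reference used nor how rows were matched between species. 1 row of the 30041 carried a merged identifier and was left out. Values were tested as log2(TPM + 1) with limma 3.58.1 in R 4.3.3 (trend, 4 group means, 8 residual degrees of freedom), with Benjamini-Hochberg adjustment over 20518 rows averaging at least 1 TPM in at least 1 high-light group. The script was tested on simulated data. Printed rows were those with the largest rise and fall in each number range, among rows called with 12 and with 6 libraries, not overlapping and at 5 TPM or more in the lower group. Members, ranges and rules were chosen with earlier results of these data known. Alternatives were the pseudocount, filters, scaling, other sets of libraries, a replicate block and leaving out each library. TPM keeps no depth, so no counting error is given.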

Additional observations from a re-analysis of the deposited data

Results flagged for a closer look

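The species difference differed between light levels by the interaction test of the limma model for 4 shared rows. The change, high minus control light, was 2.57 for Gene22838, −4.06 for Gene32993, −4.65 for Gene03124 and −3.78 for the remaining row, on the log2 scale. Leaving out 1 library at a time moved these changes over 2.37 to 2.71, −4.42 to −3.76, −5.12 to −4.19 and −4.12 to −3.45, in the same order, and they passed an adjusted p of 0.05 in 2, 5, 3 and 5 of 12 such fits.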

How the results depend on the processing

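The 4 printed rows kept their direction and call under every alternative run. With rows at 5 TPM in both groups, which leaves fewer rows, 3430 were called under high light (948 higher, 2482 lower; 1216 lower up to 19000, and 337 higher and 1266 lower above) and 3075 under control light (881 and 2194), and the share differences were −4.23 up to 19000, −8.20 over both ranges and −0.155 for 1 to 10 TPM. With median-ratio scaling, 3393 were higher and 2651 lower under high light (2051 and 1324 up to 19000, 1342 and 1327 above) and 3027 and 2434 under control light, and the differences of library medians were 0.015, 0.088 up to 19000 and −0.064 above. Light dependence was called for 0 rows at a pseudocount of 0.1 (limma; 0 more positive and 0 more negative, 1233 at an unadjusted p under 0.05), 2 at 5 TPM (1 more negative), 28 with median-ratio scaling (6 and 22), 28 with quantile normalization (8 and 20) and 196 with all 18 libraries (51 and 145). The cause was not tested. Leaving out 1 library gave 0 to 59 such rows (0 to 11 and 0 to 48), 5306 to 7188 calls under high light and a share difference over 1000 TPM of −7.86 to 0.511, reversed without high-light *F. robusta* replicate 2.

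Whether replicate numbers pair the samples was not settled. Deviations of same-numbered libraries correlated weakly, at −0.15 to 0.27 over 18 pairs, 5 of them above 0.1. Own numbers correlated best in 8 of 18 cases. In all 4 groups, however, the median TPM of shared rows was highest in replicate 1 and lowest in replicate 2. Whether same-numbered libraries shared a batch was not tested. A replicate block gave 7005 calls under high light and 70 light-dependent rows (3 and 67). It changed the call of none of the 4 printed rows.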
